A study of Mus musculus with 8 samples.

Results

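The genes of the voltage-gated sodium channels, the voltage-gated calcium channels and the hyperpolarization-activated HCN channels were followed in the cortex of 8-mo-old mice. They were taken by name from the count table, as the protein-coding genes called Scn followed by a number and a or b, the genes whose names begin with Cacna, Cacnb or Cacng, and the 4 HCN channel genes. This gave 44 of the 54532 genes listed, of which 41 passed the filter on low counts and were among the 17195 genes tested. They comprised 10 sodium channel alpha subunits, 4 sodium channel beta subunits, 10 calcium channel alpha1 subunits (Cacna1), 4 alpha2delta subunits (Cacna2d), 4 calcium channel beta subunits (Cacnb), 8 gamma subunits (Cacng) and 4 HCN channels. The libraries came from 4 PS19 mice and 4 Adrb1+/m;PS19 mice, 1 per mouse, all of them 8 mo old and listed as C57BL/6. All 8 mice carried the PS19 transgene, the human 1N4R tau isoform with the P301S mutation under the mouse prion protein promoter. The Adrb1+/m;PS19 mice also carried 1 knock-in copy of the Adrb1-A187V mutation in the gene of the beta1-adrenergic receptor. There were no mice without the transgene, so the comparison is between the 2 genotypes on the tau background. The study's methods give male mice unless stated otherwise and littermates as controls, and which mice shared a litter is not given in the labels. The study compared these genotypes to ask which genes go with the effect of the mutation on tau pathology.

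Voltage-gated sodium channels open on depolarization and carry the upstroke of the action potential. The alpha subunit forms the pore, and the beta subunits are single-pass membrane proteins that set its gating and placement. Voltage-gated calcium channels turn depolarization into calcium entry, which triggers transmitter release, shapes dendritic signals and reaches the nucleus. Their alpha1 subunit is the pore, while the beta and alpha2delta subunits bring it to the membrane. Most of the gamma subunits of the brain serve AMPA-type glutamate receptors as TARPs, the auxiliary proteins that traffic and gate these receptors. HCN channels open on hyperpolarization and bind cyclic AMP, the second messenger made after beta-adrenergic receptors are stimulated.

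The libraries held 14653222 to 21223754 counts. Genes of the cortex were present in every mouse, and the 10 markers of cortical excitatory neurons summed to 1626 to 1915 CPM (counts scaled per library to the same total, with TMM factors) in the PS19 mice and 1528 to 1704 in the Adrb1+/m;PS19 mice. Markers of regions next to the cortex were not equal between mice. The 10 striatal markers summed to 988 to 1962 CPM in the PS19 mice and 1033 to 2201 in the Adrb1+/m;PS19 mice, none of them at 0 in any mouse. All 10 had log2 fold changes above 0, with a median of 0.33, and 1 had an unadjusted p under 0.05 (edgeR's quasi-likelihood test). The 8 markers of basal forebrain cholinergic neurons had log2 fold changes above 0 in 8 of 8 genes, 7 of the 8 with an unadjusted p under 0.05, and sums of 33.6 to 55.4 and 54.1 to 82.8 CPM. The mean score of 5 choroid plexus markers (log2 CPM centered on the mean of all mice) was 2.05 in m658 and 1.34 in m668, against -1.09 to 0.29 in the other 6 mice. Markers of cell types within the cortex varied as well. Of 8 markers of cortical interneurons, 6 had log2 fold changes above 0 and 3 an unadjusted p under 0.05 (edgeR's quasi-likelihood test). The mean score of 6 microglia markers ran from -0.38 in m661 to 0.33 in m659. That of 6 astrocyte markers ran from -0.31 in m661 to 0.28 in m660. The part of these differences in the results below was not tested.

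RefSeq (GRCm38.p6) gave a promoter window of 300 bases, from 250 before to 50 after a RefSeq start, for 32 of the 44 genes. That start can differ from the start of the gene in the count table, and the Scn4b window lies largely within the gene coordinates given below. Where several windows were listed for a gene, the first was used. Shown here are those of Scn2b and Scn4b, which lie next to each other on chromosome 9 and whose RNA varied between mice to different degrees. Each runs 5′ to 3′, and the capitals mark the CG dinucleotides.
Scn2b promoter (chr9:45117626-45117925, plus strand): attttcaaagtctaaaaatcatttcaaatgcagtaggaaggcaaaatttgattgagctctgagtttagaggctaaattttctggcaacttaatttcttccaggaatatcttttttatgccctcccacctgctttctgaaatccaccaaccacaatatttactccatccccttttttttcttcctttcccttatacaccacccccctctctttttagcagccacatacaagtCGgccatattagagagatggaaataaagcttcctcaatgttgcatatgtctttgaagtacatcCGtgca
Scn4b promoter (chr9:45138374-45138673, plus strand): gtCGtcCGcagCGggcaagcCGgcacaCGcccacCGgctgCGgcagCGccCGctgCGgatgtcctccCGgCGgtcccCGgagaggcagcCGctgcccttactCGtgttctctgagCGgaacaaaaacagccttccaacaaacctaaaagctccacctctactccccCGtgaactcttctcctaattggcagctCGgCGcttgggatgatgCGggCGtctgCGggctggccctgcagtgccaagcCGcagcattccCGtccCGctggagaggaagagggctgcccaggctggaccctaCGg
The Scn2b window held 2 CG dinucleotides with a GC content of 38.3%, and the Scn4b window held 26 with 66.3%. Of the 27025 promoters in the table, 23.9% had no more CG dinucleotides than Scn2b and 16.8% had at least as many as Scn4b. The median over the promoters of the channel genes was 11 against 7 over all promoters. The cyclic AMP response element TGACGTCA, searched on both strands, was in none of the 32 windows and in 1.88% of all promoters. The GC box GGGCGG was in 15 of the 32 windows, against 35.9% of all promoters, and in neither of the 2 printed. The TATA box TATAAA was in 1 window, that of Cacna1d, against 14.2% of all promoters.

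Between the genotypes, Cacng3, which encodes a TARP, was the only 1 of the 41 genes tested to fall below an unadjusted p of 0.05 (edgeR's quasi-likelihood test). Its level was 103 ± 3.32 CPM in the PS19 mice vs. 94.6 ± 1.61 CPM in the Adrb1+/m;PS19 mice (mean ± SD, n = 4 mice each). This is 2.44% of the channel genes. Over all 17195 genes tested 2.80% passed the same threshold, 1.42% of all genes being higher and 1.37% lower in the Adrb1+/m;PS19 mice. After Benjamini-Hochberg adjustment over all genes tested, no channel gene and no gene of the table stayed below 0.05, where 481 genes did so unadjusted. DESeq2 and limma-voom also gave 0 genes after adjustment, and 555 and 492 before it. In RNA from pieces of cortex, fewer cells of a type and less RNA per cell cannot be told apart. The CPM of 2 of the 41 genes, Cacng3 among them, did not overlap between the genotypes, which is 4.88% of the channel genes against 2.02% of all genes tested (1.02% higher, 1.0% lower in the Adrb1+/m;PS19 mice). The log2 fold changes of the 41 genes had a median of -0.00483 against 0.000459 over all genes, and 22 were below 0, or 53.7%, against 49.8% of all genes. The median size of the change was 0.0685 in the channel genes and 0.0685 over all genes.

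The precision of these differences depended on the level of the gene. The 95% interval of the log2 fold change lay within 0.4 of 0 for 30 of the 41 genes and within 0.2 of 0 for 16 of them, and it contained 0 for 40, all but Cacng3. Among the 30 genes with a mean of at least 40 CPM the median half-width of the interval was 0.14 on the log2 scale. For genes with fewer than 1 CPM, such as Scn10a and Cacna1s, the intervals ran from -0.996 to 0.94 and from -0.38 to 1.502, so that differences of such sizes were not detectable at this depth. A p-value that misses the threshold does not show that the genotypes are alike, and the intervals give the sizes of difference still possible.

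**Figure D1:**
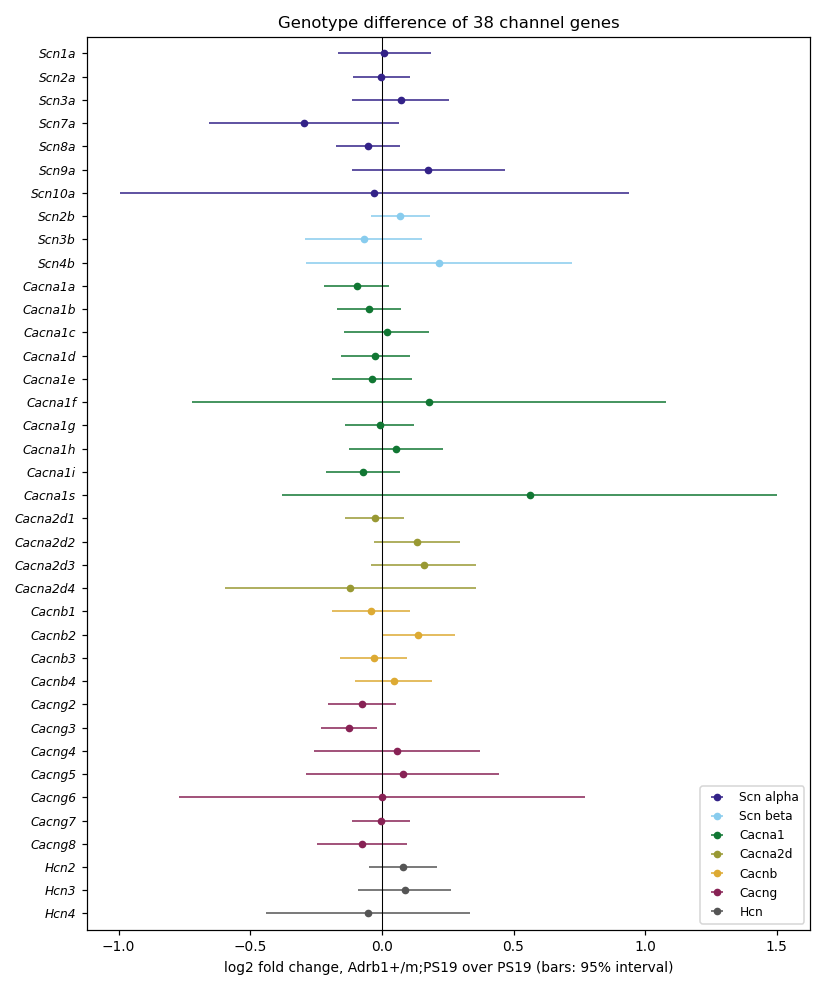
Log2 fold change of 38 of the 41 tested channel genes between the genotypes, with Adrb1+/m;PS19 over PS19 on the horizontal axis, 1 gene per line, colored by subfamily; bars are 95% intervals from edgeR with 4 mice per genotype. The bar of Cacng3 lies below 0, at -0.23 to -0.02, and the other 37 bars cross 0.

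By subfamily, genes with log2 fold changes above and below 0 were mixed in each of the 7. The median was 0.00345 for the 8 tested sodium channel alpha subunits and 0.01 for the beta subunits. It was -0.02 for the calcium channel alpha1 subunits, with 6 of 10 below 0, and 0.05 for the alpha2delta subunits, the median farthest from 0. For the calcium channel beta subunits it was 0.00694, for the gamma subunits -0.00483 and for the HCN channels 0.03. Summed over the 44 genes, the CPM per kilobase of gene length were 979 ± 44.4 (SD, n = 4 mice) in the PS19 mice and 982 ± 49.3 (SD, n = 4) in the Adrb1+/m;PS19 mice, a difference smaller than the spread within either genotype.

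Levels are compared between genes as CPM per kilobase, using the gene length column of the table, which is the number of bases covered by all exons of a gene. This length includes long untranslated exons and those of rare transcripts, so it can understate the level of a gene. The beta subunits of the sodium channels had the highest summed level of the 7 subfamilies, 386 ± 31.1 CPM per kilobase (SD, n = 8 mice), and the alpha2delta subunits the lowest, 41.3 ± 2.58. The pore subunits of the sodium channels summed to 87.1 ± 3.79 and those of the calcium channels to 94.3 ± 3.81. With the genes of each subfamily in order of level, 37 pairs of neighbors resulted. In 25 of these pairs the ranges over the 8 mice did not overlap, and in 28 the same gene was higher in 8 of 8 mice.

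**Figure D2:**
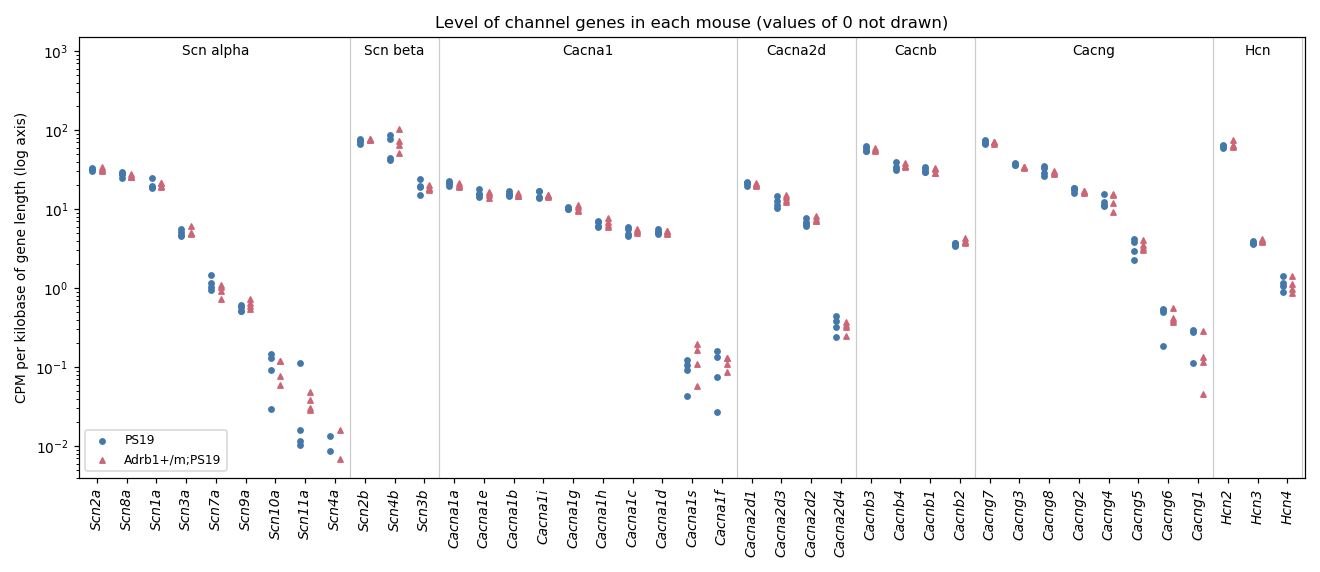
CPM per kilobase of gene length on a log axis for 41 of the 44 channel genes, ordered by level within each subfamily, with 1 point per mouse (circles, PS19; triangles, Adrb1+/m;PS19). Scn2b and Cacng7 stood highest among the genes drawn, at 74.6 ± 3.70 and 70.2 ± 2.66 CPM per kilobase (mean ± SD, n = 8 mice).

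In the remaining text, values in every mouse are given in the order m677, m668, m665 and m659 for PS19 and m671, m661, m660 and m658 for Adrb1+/m;PS19, and coordinates are those of the table (GRCm38). The sodium channel alpha subunits of the central nervous system held the upper places of their subfamily. Scn2a, the pore of excitatory neurons and their axons (chromosome 2, 65620771 to 65767447), had 32.0 ± 1.38 CPM per kilobase, Scn8a, the pore of mature axon initial segments, had 26.9 ± 1.53, and Scn1a, the pore on which fast-spiking interneurons depend, had 20.3 ± 2.01 (SD, n = 8 mice). This order held in 8 of 8 mice and the ranges did not overlap. Scn3a, which is highest around birth, stood 3.09 to 5.29 times under Scn1a, at 5.12 ± 0.531. Scn7a and Scn9a lay lower, at 1.05 ± 0.214 and 0.591 ± 0.0727 CPM per kilobase, and their ranges overlapped.

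Scn2a had 388, 407, 421 and 414 CPM in the PS19 mice and 384, 437, 396 and 412 CPM in the Adrb1+/m;PS19 mice. Its log2 fold change was -0.0016 ± 0.05 (SE), among the narrowest of the family. Scn8a had 393, 439, 459 and 439 CPM in the PS19 mice and 418, 445, 397 and 408 CPM in the Adrb1+/m;PS19 mice, a log2 fold change of -0.05 ± 0.06 (SE). Both genes overlapped widely between the genotypes, with the lowest value in m671 for Scn2a and in m677 for Scn8a. Scn1a had 211, 204, 272 and 217 CPM in the PS19 mice and 237, 241, 219 and 213 CPM in the Adrb1+/m;PS19 mice, a log2 fold change of 0.01 ± 0.08 (SE). The highest Scn1a value was that of PS19 mouse m665, and the other 7 mice lay within the range of 204 to 241 CPM. Scn3a had 58.2, 69.9, 57.5 and 63.4 CPM in the PS19 mice and 62.2, 60.1, 61.9 and 77.1 CPM in the Adrb1+/m;PS19 mice, a log2 fold change of 0.07 ± 0.09 (SE). Its highest value was in Adrb1+/m;PS19 mouse m658, while the other 3 Adrb1+/m;PS19 mice lay within the PS19 range.

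On chromosome 9 lie Scn10a and Scn11a, both channels of pain-sensing neurons. Scn10a was counted 5 to 17 times, with a log2 fold change of -0.03 ± 0.45 (SE), and Scn11a was counted 1 to 11 times and did not pass the filter. Scn7a, a sodium-sensing channel of glia, had a log2 fold change of -0.30 ± 0.17 (SE), and Scn9a, a channel of peripheral sensory neurons, one of 0.18 ± 0.13 (SE). Scn4a, the sodium channel of skeletal muscle, was counted 0 to 2 times and did not pass it either.

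Scn2b and Scn4b, the beta subunits that bind the pore through a disulfide bond, are 8.32 kb apart on the same strand of chromosome 9, Scn2b at 45117782 to 45130070 and Scn4b at 45138395 to 45154152. Their promoter windows are those printed above. Scn2b had 311, 365, 340.4 and 339 CPM in the PS19 mice and 352, 362, 351 and 358 CPM in the Adrb1+/m;PS19 mice, a log2 fold change of 0.07 ± 0.05 (SE), and varied by 1.17 times from the lowest to the highest mouse. Scn4b had 207, 435, 384 and 218 CPM in the PS19 mice and 510.4, 252, 321 and 364 CPM in the Adrb1+/m;PS19 mice, and varied by 2.47 times. Mice of both genotypes were at both ends, with m671 and m668 highest and m677 and m659 lowest. The log2 fold change of Scn4b was 0.22 ± 0.23 (SE), with a 95% interval of -0.29 to 0.72, wider than that of any other gene of the family with at least 40 CPM. The ratio of Scn4b to Scn2b ran from 0.642 in m659 to 1.45 in m671. Scn3b, the remaining beta subunit, had 18.9 ± 2.46 CPM per kilobase and a log2 fold change of -0.07 ± 0.10 (SE).

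Among the pores of the calcium channels, Cacna1a (chromosome 8, 84388440 to 84640246), the P/Q-type channel of nerve terminals, was highest with 20.7 ± 1.32 CPM per kilobase. Cacna1e, Cacna1b and Cacna1i, the pores of the R-type, N-type and a T-type channel, followed at 15.6 ± 1.26, 15.5 ± 0.831 and 15.1 ± 1.11, and their ranges overlapped, so that no order among the 3 held in all mice. The other T-type channels, Cacna1g and Cacna1h, had 10.2 ± 0.552 and 6.60 ± 0.634, and the L-type channels Cacna1c and Cacna1d had 5.25 ± 0.429 and 5.14 ± 0.269, with overlapping ranges. Cacna1s, the L-type channel of skeletal muscle, and Cacna1f, that of the retina, were counted 6 to 23 and 4 to 26 times. Cacna1s had 0.796, 0.690, 0.283 and 0.602 CPM in the PS19 mice and 0.720, 0.383, 1.29 and 1.08 CPM in the Adrb1+/m;PS19 mice. The genotypes overlapped, the log2 fold change was 0.56 ± 0.44 (SE), and at these counts the value carries little weight. An exon of another gene on the opposite strand covers 19.98% of the exon bases of Cacna1s.

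Cacna1a had 227, 247, 260.2 and 242 CPM in the PS19 mice and 229, 246, 216 and 222 CPM in the Adrb1+/m;PS19 mice, a log2 fold change of -0.10 ± 0.06 (SE, unadjusted p = 0.119 from edgeR's quasi-likelihood test). The highest value was in PS19 mouse m665 and the lowest in Adrb1+/m;PS19 mouse m660, and Adrb1+/m;PS19 mouse m661 was above 2 of the 4 PS19 mice. Cacna1b had 156, 169, 145 and 155 CPM in the PS19 mice and 148, 147, 148 and 161 CPM in the Adrb1+/m;PS19 mice, a log2 fold change of -0.05 ± 0.06 (SE). Cacna1e had 393, 455, 359 and 387 CPM in the PS19 mice and 353, 403, 385 and 412 CPM in the Adrb1+/m;PS19 mice, a log2 fold change of -0.04 ± 0.07 (SE). In these 3 channels the mean was lower in the Adrb1+/m;PS19 mice and the genotypes overlapped. Cacna1c, the L-type channel that couples synaptic activity to transcription, had 102, 125, 97.9 and 117 CPM in the PS19 mice and 111, 106, 112 and 118 CPM in the Adrb1+/m;PS19 mice, a log2 fold change of 0.02 ± 0.08 (SE). Of the T-type channels, Cacna1g had 101, 102, 105 and 108 CPM in the PS19 mice and 96.2, 113, 107 and 97.5 CPM in the Adrb1+/m;PS19 mice and Cacna1h had 59.2, 68.5, 66.8 and 58.5 CPM in the PS19 mice and 66.5, 58.8, 61.2 and 76.1 CPM in the Adrb1+/m;PS19 mice. Their log2 fold changes were -0.01 ± 0.06 (SE) and 0.05 ± 0.08 (SE), and the genotypes overlapped in both. Cacna1d and Cacna1i had log2 fold changes of -0.02 and -0.07.

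Cacna2d1 and Cacna2d2 encode the binding sites of gabapentin. The alpha2delta subunits were ordered as Cacna2d1 with 20.9 ± 0.940, Cacna2d3 with 12.9 ± 1.59, Cacna2d2 with 7.14 ± 0.662 and Cacna2d4, best known from the retina, with 0.335 ± 0.0675 CPM per kilobase. The ranges of neighbors did not overlap. Cacna2d1 (chromosome 5, 15934691 to 16374511) had 240.2, 276, 266 and 265 CPM in the PS19 mice and 247, 259, 254 and 267 CPM in the Adrb1+/m;PS19 mice, a log2 fold change of -0.03 ± 0.05 (SE). Cacna2d3 (chromosome 14, 28904943 to 29721864) had 98.9, 126, 111 and 90.2 CPM in the PS19 mice and 124, 109, 114 and 130.3 CPM in the Adrb1+/m;PS19 mice, a log2 fold change of 0.16 ± 0.09 (SE, unadjusted p = 0.109). PS19 mouse m668 lay among the highest values with m658 and m671, and without m668 the log2 fold change was 0.25 with an unadjusted p of 0.00981. Without m659, the lowest PS19 mouse, it was 0.09 (unadjusted p = 0.344), and without any other single mouse it was 0.11 to 0.20 with an unadjusted p of at least 0.0606. Cacna2d2 had a log2 fold change of 0.13 ± 0.08 (SE) and Cacna2d4, counted 38 to 89 times, one of -0.12 ± 0.22 (SE).

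The beta subunits of the calcium channels, which bind the pore inside the cell, were led by Cacnb3 with 57.0 ± 3.38 CPM per kilobase. Cacnb4, the subunit mutated in the lethargic mouse, had 35.3 ± 2.72 and Cacnb1 had 31.1 ± 2.30, with overlapping ranges, and Cacnb2, the main subunit of the heart, had 3.77 ± 0.283. Cacnb3 had 218, 254, 217 and 235 CPM in the PS19 mice and 241, 218, 223 and 222 CPM in the Adrb1+/m;PS19 mice, a log2 fold change of -0.03 ± 0.06 (SE). Cacnb4 had 284, 297, 358 and 307 CPM in the PS19 mice and 316, 345, 318 and 306 CPM in the Adrb1+/m;PS19 mice, a log2 fold change of 0.05 ± 0.07 (SE), with the highest value in PS19 mouse m665. Another gene on the opposite strand shares 15.99% of the exon bases of Cacnb4. Cacnb2 was named after its values were seen, since its unadjusted p of 0.0511 was just above the threshold that Cacng3 passed with 0.0233. It had 46.5, 49.4, 48.9 and 45.1 CPM in the PS19 mice and 52.2, 50.4, 49.1 and 57.4 CPM in the Adrb1+/m;PS19 mice, a log2 fold change of 0.14 ± 0.06 (SE). The lowest Adrb1+/m;PS19 mouse, m660, was below PS19 mouse m668, and the highest was m658. Cacnb1 had a log2 fold change of -0.04 ± 0.07 (SE).

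Of the gamma subunits, the TARPs were the abundant members. Cacng7 had 70.2 ± 2.66 CPM per kilobase, 41.4% of the sum, followed by Cacng3 with 35.6 ± 1.87, Cacng8, the TARP best known from the hippocampus, with 30.01 ± 2.81, Cacng2 (stargazin) with 17.2 ± 1.04, Cacng4 with 12.7 ± 2.36 and Cacng5 with 3.39 ± 0.658. This order held in 8 of 8 mice, with overlapping ranges only for Cacng3 and Cacng8. Cacng6, which is not a TARP, was counted 6 to 23 times, and Cacng1, the gamma subunit of skeletal muscle, 0 to 6 times, too few to pass the filter. These genes sit in clusters, Cacng7, Cacng8 and Cacng6 on chromosome 7 and Cacng1, Cacng4 and Cacng5 on chromosome 11, so abundant and nearly silent members were next to each other. Cacng8 and Cacng6, 8.55 kb apart, differed by 30.01 against 0.438 CPM per kilobase.

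Cacng3 (chromosome 7, 122670492 to 122769393) had 107, 100.2, 104 and 101 CPM in the PS19 mice and 92.4, 94.3, 95.6 and 96.0 CPM in the Adrb1+/m;PS19 mice. Every Adrb1+/m;PS19 mouse was below every PS19 mouse, by a gap of 4.17 CPM between the nearest pair, m668 and m658. The exact permutation p was 0.0286 (means, 2-sided), the smallest that 4 mice against 4 allow. Any gene whose genotypes do not overlap has this p, so it adds nothing to that separation. Its log2 fold change was -0.13 ± 0.05 (SE), with an unadjusted p of 0.0233 from edgeR's quasi-likelihood test and an adjusted p of 0.9996. The unadjusted p was 0.0166 with DESeq2 and 0.0208 with limma-voom. It missed the threshold with 0.0654 without PS19 mouse m677, the mouse with the highest value, and with 0.0605 when no filter beyond 1 count was used. In the same mice the 10 cortical excitatory markers had 3 log2 fold changes above 0, 4 unadjusted p-values under 0.05 and a median log2 fold change of -0.14. With the score of these markers, the log2 CPM of Cacng3 gave Pearson's r = 0.164, exact permutation p = 0.703, and Spearman's rho = 0.214, exact permutation p = 0.619 (n = 8 mice). Without m658 and m677, the mice farthest from the median score, r was 0.790, and with deviations from the genotype mean it was -0.699 (exact permutation within genotypes, p = 0.0451, not adjusted), so that the sign of the relation rested on which mice were used and how they were centered. The part of these markers in the difference was not tested.

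The other TARPs did not separate the genotypes. Cacng7 had 182, 166, 162 and 176 CPM in the PS19 mice and 175, 165, 171 and 173 CPM in the Adrb1+/m;PS19 mice, a log2 fold change of -0.0048 ± 0.05 (SE), and it was the least variable gene of the family, with a coefficient of variation of 3.79% over the 8 mice. Cacng2 had 87.1, 96.6, 101 and 103 CPM in the PS19 mice and 93.8, 94.8, 90.7 and 89.3 CPM in the Adrb1+/m;PS19 mice, a log2 fold change of -0.08 ± 0.06 (SE). PS19 mouse m677 had the lowest Cacng2 value and the other 3 PS19 mice the highest. Cacng4 had 40.4, 55.0, 44.2 and 38.8 CPM in the PS19 mice and 56.0, 33.1, 43.0 and 53.5 CPM in the Adrb1+/m;PS19 mice, a log2 fold change of 0.06 ± 0.15 (SE), with m671, m668 and m658 highest. For Cacng8 the log2 fold change was -0.08 ± 0.08 (SE) and for Cacng5 0.08 ± 0.17 (SE).

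Hcn2 (chromosome 10, 79716634 to 79736108) held 85.0% of the summed level of the 4 HCN channels, with 64.0 ± 4.35 CPM per kilobase. This share depends on the scaling by length, since Hcn2 has the shortest gene length of the 4, 3195 bases. Hcn3 had 3.88 ± 0.185 and Hcn4, the channel of the cardiac pacemaker, 1.12 ± 0.213, an order of the 3 that held in 8 of 8 mice without overlap. Hcn2 had 189, 201, 207 and 199 CPM in the PS19 mice and 237, 202, 198 and 204 CPM in the Adrb1+/m;PS19 mice, a log2 fold change of 0.08 ± 0.06 (SE). Its highest value was in m671 and the other 3 Adrb1+/m;PS19 mice lay within the PS19 range. The log2 fold changes of Hcn3 and Hcn4 were 0.09 ± 0.08 (SE) and -0.05 ± 0.18 (SE). Hcn3 shares 17.1% of its exon bases with Pklr on the opposite strand, and without a known strand setting the reads of the 2 genes there cannot be told apart.

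Beyond the channels themselves, 30 genes for proteins that bind, anchor or regulate them were tested, and 2 fell below an unadjusted p of 0.05 (edgeR's quasi-likelihood test), 6.67% of the list against 2.80% of all genes. Of these, 1 was higher and 1 lower, and neither passed the adjustment over all genes tested. Rimbp2, a presynaptic protein that tethers calcium channels to the release site, had 150.2, 168, 159 and 166 CPM in the PS19 mice and 145, 147, 137 and 149 CPM in the Adrb1+/m;PS19 mice, a log2 fold change of -0.15 ± 0.05 (SE, unadjusted p = 0.0118). The genotypes did not overlap, with m677 lowest among the PS19 mice and m658 highest among the others. Rem2, a small GTPase that inhibits calcium channels, had 7.41, 10.8, 8.26 and 6.51 CPM in the PS19 mice and 15.5, 9.004, 8.90 and 13.1 CPM in the Adrb1+/m;PS19 mice, a log2 fold change of 0.49 ± 0.20 (SE, unadjusted p = 0.0256). The genotypes overlapped in Rem2, since m661 and m660 were below PS19 mouse m668. For the scaffolds of the axon initial segment the genotypes differed by little, with log2 fold changes of 0.03 ± 0.04 (SE) for Ank3 and -0.07 ± 0.05 (SE) for Sptbn4. Pex5l, which encodes the HCN partner TRIP8b, had a log2 fold change of -0.05 ± 0.05 (SE), and Nalcn, the pore of the sodium leak channel, one of 0.11 ± 0.06 (SE). The 4 FGF homologous factors Fgf11 to Fgf14 lay between -0.06 and 0.05, and the median over the 30 genes was -0.03.

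**Figure D3:**
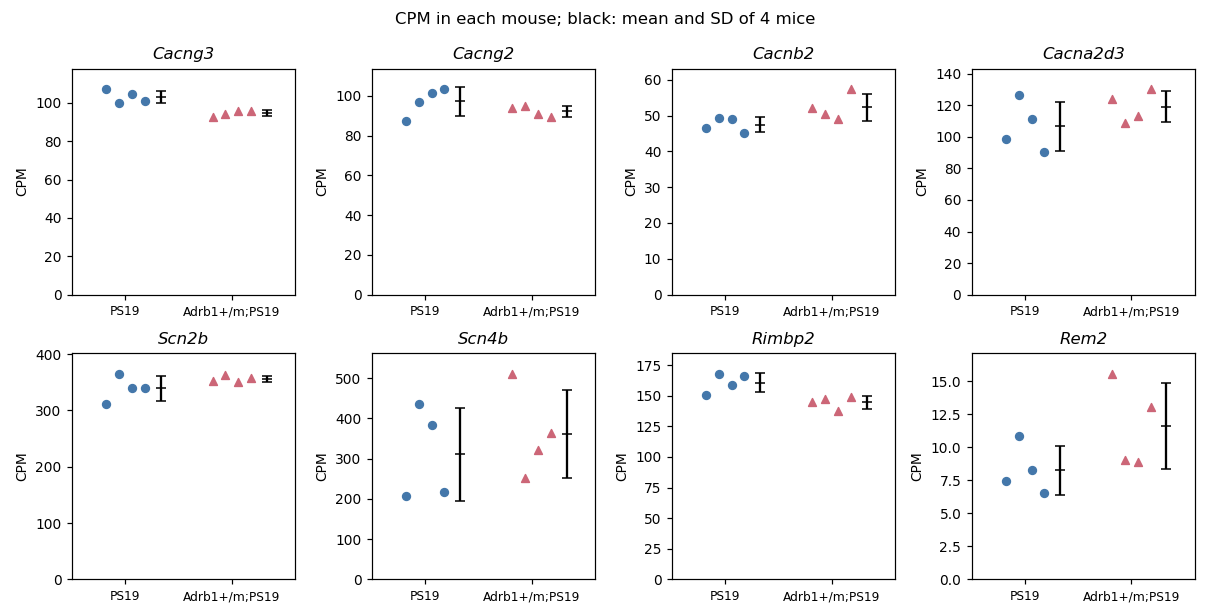
CPM of 6 channel genes and of the partner genes Rimbp2 and Rem2 in each mouse, with the vertical axis from 0; circles are PS19 and triangles Adrb1+/m;PS19 mice, and black bars give the mean and SD of 4 mice. Cacng3 and Rimbp2 are lower in all 4 Adrb1+/m;PS19 mice than in any PS19 mouse, Scn2b varies little, and Scn4b covers a wide range in both genotypes.

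Over all 8 mice, the channel genes with at least 40 CPM had a median coefficient of variation of 7.33%, against 5.76% for the 5477 genes of the table at that level. Scn4b stood apart with 32.0%, more than 99.5% of those genes. The log2 CPM of each channel gene was set against the score of 10 striatal markers and that of 10 cortical excitatory markers. A score is the average over the list of log2 CPM values, each centered on its own gene. The striatal score was -0.53, 0.45, -0.06 and -0.48 in the PS19 mice and 0.61, -0.41, 0.05 and 0.38 in the Adrb1+/m;PS19 mice. Both genotypes thus held high and low mice, although all 10 striatal markers had log2 fold changes above 0. The cortical excitatory score ran only from -0.12 in m658 to 0.07 in m665. With 4 mice per genotype no correlation is given for either genotype alone, and the labels give no batch.

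Scn4b, Cacng4 and Cacna2d3 followed the striatal score most closely. For Scn4b the values were Pearson's r = 0.945, exact permutation p = 0.00149, and Spearman's rho = 0.929, exact permutation p = 0.00223 (n = 8 mice). For Cacng4 they were Pearson's r = 0.918, exact permutation p = 0.00303, and Spearman's rho = 0.881, exact permutation p = 0.00724. For Cacna2d3 they were Pearson's r = 0.904, exact permutation p = 0.00248, and Spearman's rho = 0.881, exact permutation p = 0.00724. In all, 82 relations of a channel gene with a score were computed. Adjusted by Benjamini-Hochberg over all 17185 genes outside the marker list, the permutation p of each of the 3 was 0.351, so none passed. Without m671 and m677, the mice farthest from the median score, r was 0.895, 0.938 and 0.909 in the order above. With deviations from the genotype mean, which pool the spread within both genotypes, r was 0.944, 0.962 and 0.890 in the same order (exact permutation within genotypes, p = 0.00174, 0.00347 and 0.0104, not adjusted; n = 8 mice). The first of these is the smallest p that permuting within the genotypes can give. This centering was chosen after seeing the data. Of all genes, 0.751% had an absolute r of at least 0.9 with this score, and 3 of the 41 channel genes did. An unadjusted exact permutation p under 0.05 was given to 7 of the 41 channel genes, against 7.65% of all genes. Scn2b, the neighbor of Scn4b, had r = 0.603 (exact permutation p = 0.0974).

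With the cortical excitatory score, Cacng2 had the highest correlation, Pearson's r = 0.878, exact permutation p = 0.00360, and Spearman's rho = 0.952, exact permutation p = 0.00114, an adjusted p of 0.937 over all genes and an r of 0.949 without m658 and m677. Scn8a and Cacna1a followed with r = 0.790 and r = 0.782 (exact permutation p = 0.0184 and p = 0.0200). Of the 41 channel genes 3 had an exact permutation p under 0.05 with this score, against 4.95% of all genes. These correlations describe 8 libraries, and what moved the scores was not tested.

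**Figure D4:**
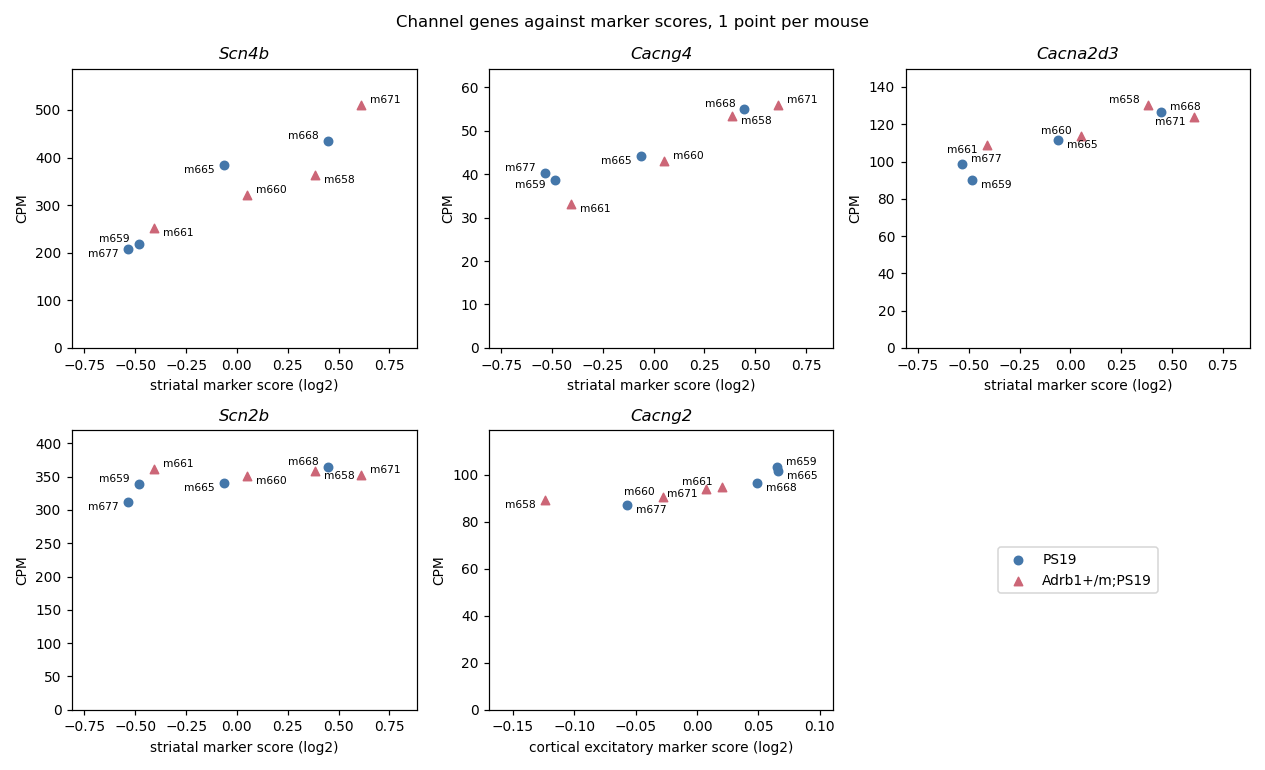
CPM of 5 channel genes (vertical axis, from 0) against the striatal or, for Cacng2, the cortical excitatory marker score (horizontal axis, log2 units), 1 labeled point per mouse, circles for PS19 and triangles for Adrb1+/m;PS19. Scn4b rises from 207 CPM in m677 to 510.4 in m671, the mice with the lowest and the highest striatal score, with both genotypes along the way. The correlations in the text use log2 CPM.

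Of the 44 channel genes, 12 share exon bases with another annotated gene in GENCODE M21, whose coordinates and exon lengths match those of the table for all 44 genes. Only Cacna1s, Cacnb4, Hcn3, Cacnb2 and Cacng2 share more than 5%, all with genes on the opposite strand, and their counts are uncertain to that degree because the strand setting is not given in the sources used here. Cacng3, Scn2b and Scn4b share none.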

How the data were processed

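RNA-seq of mouse cortex, 4 PS19 and 4 Adrb1+/m;PS19 mice, was analyzed from the deposited counts. The authors aligned paired-end reads to GRCm38/mm10 with HISAT2 2.0.5 and counted them per Ensembl gene with featureCounts 1.5.0-p3. The deposited counts are not normalized, and how strand, read pairs and reads with several matches were handled is not given in the sources used here. The gene length column, a number of bases, served for levels per kilobase.

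Genes were kept by filterByExpr and compared with edgeR 4.0.16 run in R 4.3.3, using TMM factors and the quasi-likelihood fit and test (glmQLFit, glmQLFTest) without a covariate. P-values are 2-sided and were adjusted by Benjamini-Hochberg over 17195 genes, and an unadjusted p-value of 0.05, the study's selection, served as the threshold. Standard errors are the log2 fold change divided by the square root of F, and 95% intervals use 13.5 degrees of freedom. Marker scores and the log2 CPM of the correlations use a prior count of 2. The fit was tested on simulated data, with changes larger than that of any channel gene. That test therefore does not show how well differences of the sizes reported here are found. The labels give each mouse as its own sample and give no litter, sex or batch, so litters stay in the spread.

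The channel genes, gene lists and tests were chosen with earlier results of these data known. Values in every mouse are given for genes with an unadjusted p-value under 0.05 or without overlap, the highest of each subfamily, 18 set genes, the 2 largest changes and the 3 genes closest to a marker score. Some genes and a promoter that these rules would name are not reported here. Alternatives were DESeq2 1.42.0, limma-voom (limma 3.58.1), DESeq2's size factors, other count filters, protein-coding genes alone and each mouse left out.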

Additional observations from a re-analysis of the deposited data

Results flagged for a closer look

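Among the 82 groups of 4 values formed by the 41 tested channel genes and the 2 genotypes, 4 held a mouse far from the other 3, with a gap to its nearest neighbor beyond Dixon's 95% critical value for 4 samples, where chance gives about 1 in 20 groups. Scn3a in Adrb1+/m;PS19 mouse m658 had 77.1 CPM, against 60.1 to 62.2 in the other 3 mice of its genotype, so that the gap took a share of 0.874 of the whole range. Cacna1b in Adrb1+/m;PS19 mouse m658 had 161 CPM, against 147 to 148 in the other 3 mice of its genotype, so that the gap took a share of 0.892 of the whole range. In m658 the score of the 5 choroid plexus markers was 2.05, against -1.09 to -0.26 in the other Adrb1+/m;PS19 mice. The same mouse had the highest basal forebrain cholinergic score of all mice, 0.64, and the lowest cortical excitatory score, -0.12. The part of these scores in the values of the 2 genes was not tested. Hcn2 in Adrb1+/m;PS19 mouse m671 had 237 CPM, against 198 to 204 in the other 3 mice of its genotype, so that the gap took a share of 0.844 of the whole range. Mouse m671 also had the highest striatal score, 0.61, and the part of this in its Hcn2 value was not tested. Cacng6 in PS19 mouse m659 had 0.361 CPM, against 0.980 to 1.09 in the other 3 mice of its genotype, so that the gap took a share of 0.854 of the whole range. That gene was counted only 6 to 23 times.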

How the results depend on the processing

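No paired analysis was possible because every mouse carries its own number and nothing ties a mouse of one genotype to one of the other. At an unadjusted p under 0.05, the call for Cacng3 held with DESeq2, limma-voom, DESeq2's size factors, at least 10 counts in every mouse and protein-coding genes alone. Without a filter beyond 1 count it did not, so that 0 channel genes were lower, and 3 were higher, Cacna2d3 and Scn4b among them. Higher in the Adrb1+/m;PS19 mice was 1 channel gene with limma-voom, 1 with at least 10 counts in every mouse (Cacnb2) and 1 among protein-coding genes alone (Cacnb2). The causes were not tested. With each mouse left out in turn, 0 to 3 channel genes were higher and 1 to 2 lower. For these fits, and for those with other filters or size factors, the share of all genes called is not given. The counts of channel and partner genes from them are therefore no result about either list. The 3 higher came without PS19 mouse m668 (Cacna2d2, Cacna2d3 and Cacnb2). Without m661 or m660 1 was higher, Cacnb2 in both cases. Without m677 or m659 1 was higher as well, and it was not Cacnb2. The 2 lower came without m677 (Cacna1a and Cacng2, with Cacng3 no longer among them) and without m661 (Cacna1a and Cacng3). The genotypes did not overlap in 2 to 6 channel genes, with 6 without m668. With fewer mice in a genotype, full separation by chance is more likely. The share of all genes without overlap is not given with a mouse left out. These counts of non-overlap therefore cannot be set against those from all mice and are no result about the channel genes. Of the partner genes 0 to 2 were higher, with 0 without m677, m659, m671 or m658, where Rem2 missed the threshold, and 2 without m668. Of the partner genes 1 to 2 were lower, with 2 without m665, m671 or m661, Rimbp2 among them each time.

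When single mice were left out, log2 fold changes near 0 took both signs: -0.038 to 0.11 for Scn1a, -0.037 to 0.025 for Scn2a, -0.018 to 0.13 for Scn3a, -0.036 to 0.083 for Cacna1c, -0.083 to 0.033 for Cacna1e, -0.054 to 0.024 for Cacna1g, -0.026 to 0.10 for Cacna1h, -0.065 to 0.017 for Cacnb3, -0.047 to 0.19 for Cacng4 and -0.030 to 0.026 for Cacng7. Correlations with the cortical excitatory score did so too, with r of -0.159 to 0.311 for Scn4b, -0.416 to 0.102 for Cacng4 and -0.572 to 0.0217 for Cacna2d3. The counts that follow are adjusted over the 82 relations alone, a smaller family than the 17185 genes used above and one chosen with earlier results known, so they are no sign that a relation passed over all genes. On that basis no channel gene had an adjusted p under 0.05 over all 8 mice, and 0 to 1 for the striatal score with a mouse left out (1, Scn4b, without m665 or m658) and 0 to 1 for the cortical excitatory score (1, Cacng2, without m658). With deviations from the genotype mean, alternatives chosen after seeing the data, 1 channel gene (Cacng4) passed for the striatal score when all 8 mice were permuted together, and 0 passed for either score when mice were permuted within their genotype. Genes under 1 CPM were limited by depth.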
